A study of Sus scrofa with 11 samples.

Results

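The MHC class II antigen presentation genes of the pig were followed in the *M. semimembranosus*, a muscle of the ham, of 11 purebred Duroc gilts. The genes were SLA-DRA, SLA-DRB1, SLA-DQA1, SLA-DQB1, SLA-DMA, SLA-DMB, SLA-DOA and CD74, where SLA stands for swine leucocyte antigen. They were taken as every probe set of the Affymetrix Porcine Genome array whose annotation gave a single symbol from these 8, which left 11 of the 23999 non-control probe sets. Of these, 8 lay above the highest negative control probe set on all 11 arrays, and these 8 read 7 of the genes. The exceptions were SLA-DOA and the dimmer pair of the 3 SLA-DRB1 probe sets.

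All gilts were fed to the same energy content for 63 days in the finisher stage. The HP group of 6 received a diet with 217 g/kg crude protein and 13 g/kg lysine, and the LP group of 5 one with 128 g/kg crude protein and 7 g/kg lysine, reached with more wheat and less soya. Each pig gave 1 muscle sample and 1 array, so the spread between arrays included the spread between animals. No group was left unfed or on a commercial ration, so LP could be compared only with HP. The weight blocks, pens and slaughter dates were not given for each pig in the sources used here, and their part in any difference cannot be told apart from diet. The levels are on a log2 scale, so that 1 unit is a doubling.

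Class II molecules carry peptides from proteins taken up by the cell to the cell surface, where CD4+ T lymphocytes read them. They are made mainly by dendritic cells, macrophages and B lymphocytes, with more under interferon-γ, and in muscle they are known from the cells between the fibres rather than from resting fibres. An α and a β chain pair, the invariant chain CD74 fills their groove on the way to the endosome, cathepsins trim it, and DM then exchanges the last fragment for a peptide while DO holds DM in check.

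The arrays had a common median of 6.72, and the highest negative control lay between 1.96 and 3.58. The hybridisation spike-ins, bacterial transcripts added at fixed amounts, averaged 12.0, 12.2 and 12.2 in HP pigs 1, 2 and 4 and lay between 11.3 and 11.9 in the other arrays. Their LP minus HP difference was −0.26 (exact permutation test, p = 0.186). Muscle fibre genes were above the negative controls on all arrays for 13 of 13 measured markers. Of the markers of cells that carry class II, 12 of 14 macrophage genes, 4 of 6 dendritic cell genes and 4 of 5 B lymphocyte and plasma cell genes were above them on all arrays. The exceptions were ITGAM on 1 array and MARCO on 0 among the macrophage genes, and CD80 on 9 arrays and CCR7 on 0 among the dendritic cell genes. The B lymphocyte receptor chain CD79B was above them on 0 arrays.

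No difference between the diets was found for the class II genes. No probe set of the 8 genes was called by limma at an unadjusted p of 0.05 or less, against 1227 of 23999 probe sets or 5.11% in the whole comparison. The study put the same threshold on the P-like values of puma, which draw on probe-level uncertainty that the deposited levels do not carry, so the calls of both methods need not be the same. None had groups that did not overlap, and none was called by the exact permutation test over the 462 splits of the pigs, where the smallest possible p is 0.0021645. For these counts the shares over all probe sets were not taken, so they do not set the class II genes apart. After Benjamini-Hochberg adjustment 0 of the 23999 probe sets passed, or 0%, and the smallest adjusted p was 0.644 (limma). The median LP minus HP difference over the 8 genes, taken from the brightest probe set where a gene had several, was −0.0031 on the log2 scale and the median absolute difference was 0.019. Over all probe sets above the negative controls on every array the median absolute difference was 0.129. The 8 genes include SLA-DOA, which was not above them on every array. With SEs from 0.127 for SLA-DMA to 0.459 for SLA-DOA, the medians do not show the class II genes to be steadier, and the contrast was not tested. In bulk muscle a lower share of class II positive cells and less RNA per cell cannot be told apart.

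SLA-DRA encodes the near-invariant α chain of the DR molecule, the main class II product of most presenting cells. Its level ran from 10.26 to 11.24 in the HP pigs with a median of 10.61. The LP pigs 1 to 5 stood at 10.65, 10.85, 10.36, 10.997 and 10.57, all within the HP range. The LP minus HP difference was 0.0042 ± 0.188 (SE) with a 95% interval from −0.41 to 0.42, or 0.75 to 1.34 as a fold (exact permutation test, p = 0.987). HP 4 was the highest pig and HP 5 the lowest, 1.96-fold apart.

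SLA-DRB1 encodes the polymorphic DR β chain. On its brightest probe set, numbered 1 as in the plots, the HP pigs ran from 9.83 to 11.10 with a median of 10.41. The LP pigs 1 to 5 gave 10.55, 10.68, 9.75, 10.74 and 10.43, with LP 3 the lowest of all 11 pigs and HP 4 the highest. The groups overlapped, and their difference was −0.010 ± 0.267 with an interval from −0.60 to 0.58 (exact permutation test, p = 0.974). This was the widest spread among pigs of the 7 well measured genes, 2.54-fold between the extremes.

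The other SLA-DRB1 probe sets were dim. Probe set 2 was above the negative controls in 4 of 6 HP and 4 of 5 LP pigs and differed by 0.30 ± 0.57 (exact permutation test, p = 0.675). Probe set 3 was above them on 0 arrays, so no fold is given for it (exact permutation test, p = 0.286).

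The DQ chains form the other classical class II pair, and neither was called. SLA-DQA1 ran from 9.14 to 10.37 in HP pigs with a median of 9.86, and the LP pigs 1 to 5 stood at 9.99, 10.21, 9.28, 9.98 and 9.86. SLA-DQB1 ran from 8.90 to 9.86 in HP pigs with a median of 9.22, and the LP pigs 1 to 5 stood at 9.28, 9.64, 8.95, 9.25 and 9.005. Every LP value of both chains lay inside the HP range. The differences were 0.0089 ± 0.235 for SLA-DQA1 (exact permutation test, p = 0.974) and −0.074 ± 0.199 for SLA-DQB1 (exact permutation test, p = 0.738). Their intervals ran from −0.51 to 0.53 and from −0.51 to 0.37.

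CD74, the invariant chain that escorts new class II molecules, ran from 10.01 to 11.06 in HP pigs with a median of 10.28. The LP pigs 1 to 5 gave 10.37, 10.41, 10.31, 10.55 and 10.23, again inside the HP range, and HP 4 stood at the top as it did for SLA-DRA, SLA-DRB1, SLA-DQA1 and SLA-DQB1. The difference was −0.024 ± 0.185 with an interval from −0.43 to 0.38 (exact permutation test, p = 0.907). The SD was 0.39 in HP and 0.12 in LP pigs, and the difference between the SDs was not tested.

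SLA-DMA and SLA-DMB form the DM molecule that loads peptide. SLA-DMA ran from 8.91 to 9.49 in HP pigs with a median of 9.19 on its brighter probe set, probe set 1, and the LP pigs 1 to 5 stood at 9.13, 9.27, 9.28, 9.27 and 8.97. Its difference of −0.014 ± 0.127 had the narrowest interval of the 11 probe sets, from −0.29 to 0.27 or 0.815 to 1.20 as a fold (exact permutation test, p = 0.900). SLA-DMB ran from 6.93 to 7.90 in HP pigs with a median of 7.34, and the LP pigs 1 to 5 gave 7.57, 7.40, 7.57, 7.41 and 7.26, a difference of 0.060 ± 0.187 (exact permutation test, p = 0.753). Both sets of pigs overlapped for both genes. The dimmer SLA-DMA probe set 2 differed by −0.052 ± 0.169 (exact permutation test, p = 0.758).

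SLA-DOA encodes the α chain of DO, which restrains DM, and had the largest difference of the 8 genes by brightest probe set. The HP pigs ran from 2.35 to 3.97 with a median of 3.44, and the LP pigs 1 to 5 stood at 4.27, 5.04, 2.76, 3.02 and 4.38. Thus 3 of 5 LP pigs lay above every HP pig and the other two inside the HP range. The difference was 0.64 ± 0.46, a fold of 1.56 with an interval from 0.77 to 3.14 (limma adjusted p = 0.968; exact permutation test, p = 0.229). The gene lay near background, above the negative controls in 4 of 6 HP and 4 of 5 LP pigs, and its difference was 0.35 without LP 2 and 0.92 without LP 3.

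**Figure D1:**
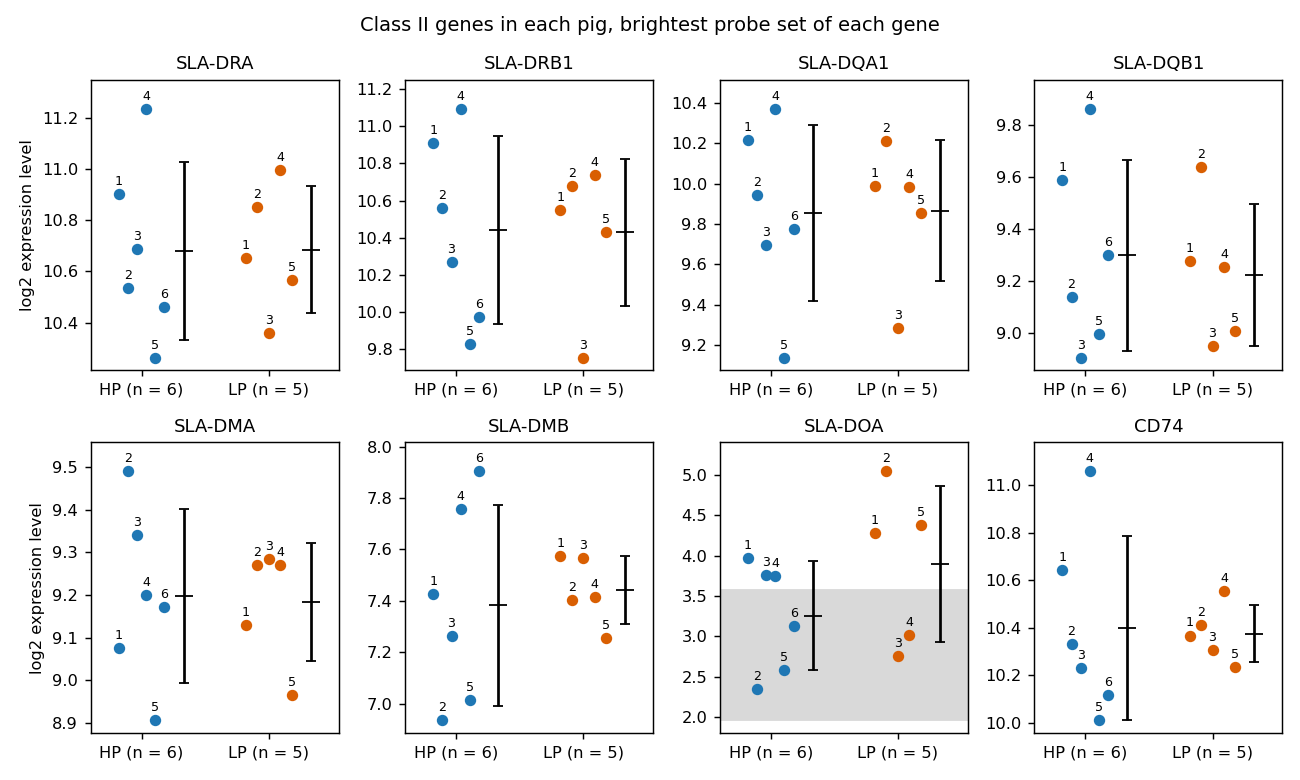
Log2 expression level (vertical axes, 1 panel for each gene, each with its own scale) of the 8 class II genes in 6 HP pigs (blue) and 5 LP pigs (orange), with replicate numbers above the points and the mean ± SD as bars. The groups overlap in every panel, HP 4 is highest for SLA-DRA, SLA-DRB1, SLA-DQA1, SLA-DQB1 and CD74, and several SLA-DOA points lie in the grey band, which spans the highest negative control of the arrays from 1.96 to 3.58.

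**Figure D2:**
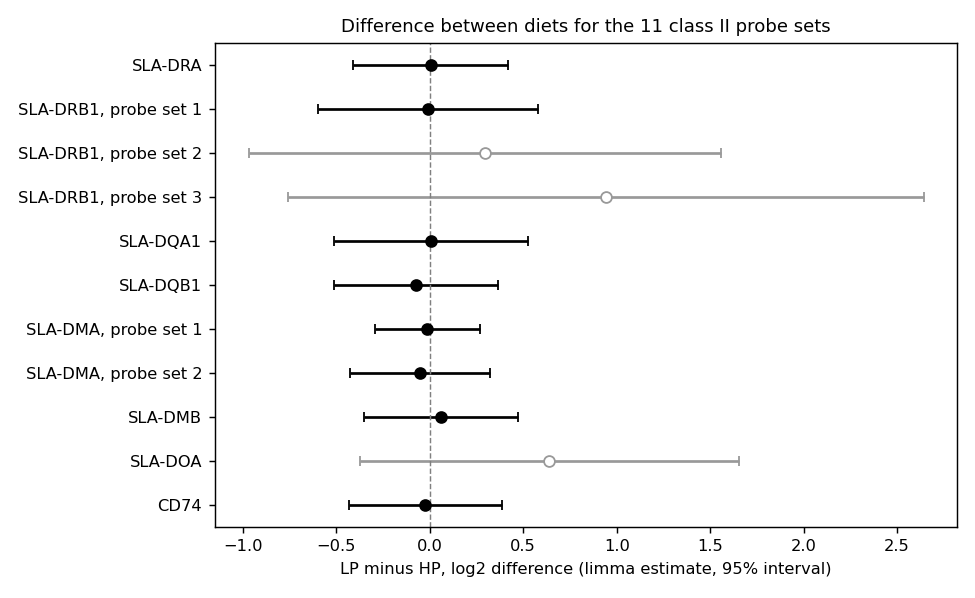
LP minus HP log2 difference (horizontal axis) of the 11 class II probe sets with 95% intervals from limma. Probe sets are numbered by brightness within a gene, filled points are the 8 probe sets above the negative controls on all arrays and hollow grey points the other 3. Every interval crosses 0, and the narrowest, SLA-DMA probe set 1, runs from −0.29 to 0.27.

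Without HP pigs 1, 2 and 4, the arrays with the highest spike-ins, no class II probe set was called either, while the median difference of the 8 genes was 0.23, SLA-DRB1 stood at 0.41 and CD74 at 0.25 on the log2 scale. The smallest unadjusted limma p of the 7 well measured genes there and in every other alternative was 0.0716, for CD74 without these pigs.

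The genes that switch class II on were measured for 13 of 18 listed regulators, and 1 was higher and 0 lower in LP pigs, against 1.57% higher and 3.16% lower of the 6765 genes with a single-symbol probe set. The one was CREB1, a factor that binds class II promoters among many others, which rose by 0.30 ± 0.12 (limma, unadjusted p = 0.0324, adjusted p = 0.962) and lay above the HP mean in 5 of 5 LP pigs. CIITA, the master regulator of class II transcription, ranged from 2.63 to 5.05 in HP pigs with a median of 3.82, and the LP pigs 1 to 5 stood at 4.18, 3.83, 4.32, 4.18 and 3.42. Its groups overlapped, with a difference of 0.18 (exact permutation test, p = 0.686). JAK2, a kinase of the interferon-γ receptor, differed by 0.30 and IFNG, the cytokine itself, by −0.30, the latter above the negative controls on 5 arrays; neither passed (limma, unadjusted p = 0.344 and 0.368).

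On the peptide loading route 6 of 17 listed genes were measured and none was called in either direction. The shares over the 6765 genes were 1.57% higher and 3.16% lower, so 0 calls in a list this short say little. The cathepsins CTSB, CTSD and CTSH, lysosomal proteases, differed by −0.21, −0.16 and −0.25 with SE of 0.149, 0.169 and 0.491 (limma, unadjusted p = 0.186, 0.364 and 0.615). CTSS, the protease that cuts the invariant chain in presenting cells, differed by 0.053 ± 0.255, and IFI30, a lysosomal thiol reductase, by −0.0055 ± 0.281. CTSS and IFI30, and CIITA above, were chosen to be named after their values were seen.

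The class I pathway, which shows peptides from inside the cell, had 15 of 22 listed genes measured, and 0 were called. Its smallest p-values were those of the chaperones CANX (−0.15) and CALR (0.13) and of the peptide transporter TAP1 (0.18), at limma unadjusted p = 0.306, 0.369 and 0.345. Of the interferon response 20 of 28 genes were measured and 0 called. Beside the 1.57% higher and 3.16% lower of the 6765 genes, 0 calls in lists this short say little about either pathway. ISG15, a ubiquitin-like protein induced by interferon, differed by 1.02 ± 0.48 (exact permutation test, p = 0.0649), DDX58, the viral RNA sensor RIG-I, by 0.29, and GBP1, a guanylate-binding protein, by −0.33.

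The cells that could carry class II were read by marker lists, each summed up as the mean log2 level of its measured genes. For their calls the shares over the 6765 genes were again 1.57% higher and 3.16% lower. For macrophages 14 of 20 genes were measured and the list mean ran from 6.01 to 7.05 in HP and 6.27 to 6.93 in LP pigs. MARCO, a scavenger receptor above the negative controls on 0 arrays, was its 1 call (higher in LP, no fold given), followed by the complement subunit C1QC (−0.40) and the lipopolysaccharide receptor CD14 (−0.33), neither called. For dendritic cells 6 of 17 genes gave means of 4.81 to 5.68 in HP and 5.18 to 5.36 in LP pigs with 0 calls, led by the activation marker CD83 (−0.25) and the co-stimulator CD86 (0.20), and the homing receptor CCR7 was above the negative controls on 0 arrays. For B lymphocytes 5 of 16 genes gave 4.75 to 5.48 in HP and 4.67 to 4.97 in LP pigs. CD79B, above the negative controls on 0 arrays, was the 1 call, lower in LP, and TNFRSF17 (0.24) and BLNK (−0.094) were not called. For T lymphocytes 13 of 20 genes gave 2.65 to 4.68 in HP and 3.32 to 3.89 in LP pigs with 0 calls, led by the chemokine CCL5 (1.65), the pore-forming PRF1 (−0.45) and the receptor chain CD247 (−0.25), and CD40LG was above the negative controls on 0 arrays. The ranges of the 2 diets overlapped for all of these lists, and no marker above the negative controls on any array was called.

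In the tissue around these cells some markers did pass. Against the 1.57% of genes higher and 3.16% lower in LP pigs, 2 of 11 measured adipocyte genes were higher and 0 lower, the desaturase SCD by 1.84 ± 0.66 and the fatty acid synthase FASN by 1.42 ± 0.57 (limma, unadjusted p = 0.0174 and 0.0311), and LEP, which encodes leptin, differed by 0.74. Of 10 fibroblast genes 1 was lower and 0 higher, the intermediate filament VIM by −0.28 ± 0.12 (limma, unadjusted p = 0.0341), with DCN at −0.28 and FN1 at −0.39, and 9 of the 10 had a negative difference with a median of −0.28. None of 13 endothelial genes was called, led by TIE1 (0.17), CLDN5 (−0.20) and ESAM (0.15), and none of 13 muscle fibre genes, led by TTN (−0.25), TNNT1 (−0.27) and TNNC2 (−0.27). The differences of the muscle fibre genes were negative for 13 of 13, with a median of −0.23 beside the −0.26 of the spike-ins. The part of these shifts in the class II levels was not tested.

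Across the arrays of the same diet, 5 of the class II genes rose and fell together. Each pig had 1 array, so differences between pigs and between arrays cannot be told apart. With the mean of each diet removed, all 10 pairs among SLA-DRA, SLA-DRB1, SLA-DQA1, SLA-DQB1 and CD74 were positively correlated, with Pearson r from 0.761 to 0.935 and a median of 0.831. All 10 passed an exact permutation of the pigs within diets after Benjamini-Hochberg adjustment over the 21 pairs of the 7 well measured genes (adjusted p from 0.00194 to 0.0329). By Spearman's rho, from 0.70 to 0.936, 9 of the 10 passed, and SLA-DRA with SLA-DQB1 did not (adjusted p = 0.0689). The 11 pairs with SLA-DMA or SLA-DMB had r from −0.036 to 0.503 and none passed (adjusted p from 0.363 to 0.977). The difference between the 10 pairs and the 11 was not tested.

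The mean deviation of the 7 genes from their diet's mean was 0.48 in HP 4 and 0.22 in HP 1, and −0.44 in HP 5. In the LP pigs it ran from −0.24 in LP 3 to 0.18 in LP 2. HP 4 was thus the high pig and HP 5 and LP 3 the low ones, on a scale where the median SD within diets of all well measured probe sets was 0.277. The array of HP 4 also had the highest negative control (3.58), the highest spike-in mean (12.2) and the smallest share of probe sets above the negative controls (74.9%). Its log2 gap between the 3′ and 5′ actin control probe sets was 6.46, as in HP 2, against 5.12 in LP 1, the smallest. The part of these array traits in the class II levels of HP 4 was not tested. The 5 covarying genes had SDs within diets of 0.31 for SLA-DRA, 0.46 for SLA-DRB1, 0.40 for SLA-DQA1, 0.33 for SLA-DQB1 and 0.30 for CD74. Of the DM genes, SLA-DMA had 0.18 and SLA-DMB 0.30.

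**Figure D3:**
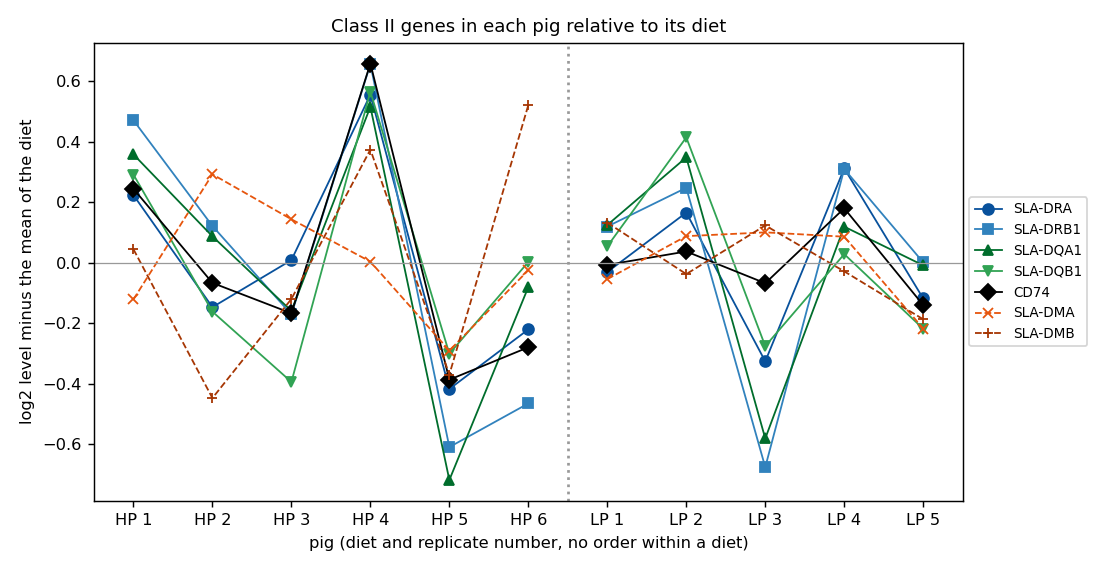
Log2 level minus the mean of the diet (vertical axis) of 7 class II genes in each pig (horizontal axis, HP left and LP right of the dotted line). The solid lines of SLA-DRA, SLA-DRB1, SLA-DQA1, SLA-DQB1 and CD74 peak together in HP 4 and dip together in HP 5, and of the dashed lines SLA-DMB is highest in HP 6 and SLA-DMA in HP 2.

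The closest pair was SLA-DRB1 with SLA-DQA1 (r = 0.935, rho = 0.936, exact within-diet permutation p = 1.85e-04, adjusted p = 0.00194), and r was 0.896 without HP 5 and LP 3, the pigs farthest from the SLA-DRB1 median. SLA-DRA and SLA-DRB1, the chains of DR, had r = 0.912 (rho = 0.90), and 0.854 without HP 4 and HP 5. SLA-DRA with CD74 had r = 0.907 (rho = 0.845), and 0.786 without HP 4 and HP 5. The chains of DQ, SLA-DQA1 and SLA-DQB1, had r = 0.825 (rho = 0.936). Over the 10 pairs r without the 2 farthest pigs was between 0.601 and 0.938.

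The values of the DM genes depended on the pigs and probe sets taken. SLA-DMA and SLA-DMB, which encode the chains of one molecule, had r = −0.036 (rho = −0.10, exact within-diet permutation p = 0.931). The 2 SLA-DMA probe sets had r = −0.061 with each other, so the probe sets of this gene did not order the pigs alike. SLA-DMB had r = 0.382 with CD74, and 0.869 without HP 2 and HP 6, the pigs farthest from the SLA-DMB median. Without HP 6 alone, a choice made after seeing the data, SLA-DMB had r = 0.810 with CD74, 0.666 with SLA-DRA and 0.643 with SLA-DQB1. Its r was lower with SLA-DRB1 (0.458) and SLA-DQA1 (0.460), while SLA-DMA stayed between 0.011 and 0.232 with the 5 genes. The 10 pairs of those genes then had r from 0.785 to 0.979. Among all pigs SLA-DMB had r = 0.338 with SLA-DRA, 0.503 with SLA-DQB1, 0.102 with SLA-DRB1 and 0.313 with SLA-DQA1. All 5 values of SLA-DMB were thus higher without HP 6. With all pigs kept and the spike-ins regressed out, it had 0.681 with CD74 and 0.485 with SLA-DRA. The part of HP 6 and of array brightness in these values was not tested. The median over all 21 pairs was 0.785 without HP 6 and 0.320 without HP 4, against 0.503 with all pigs.

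**Figure D4:**
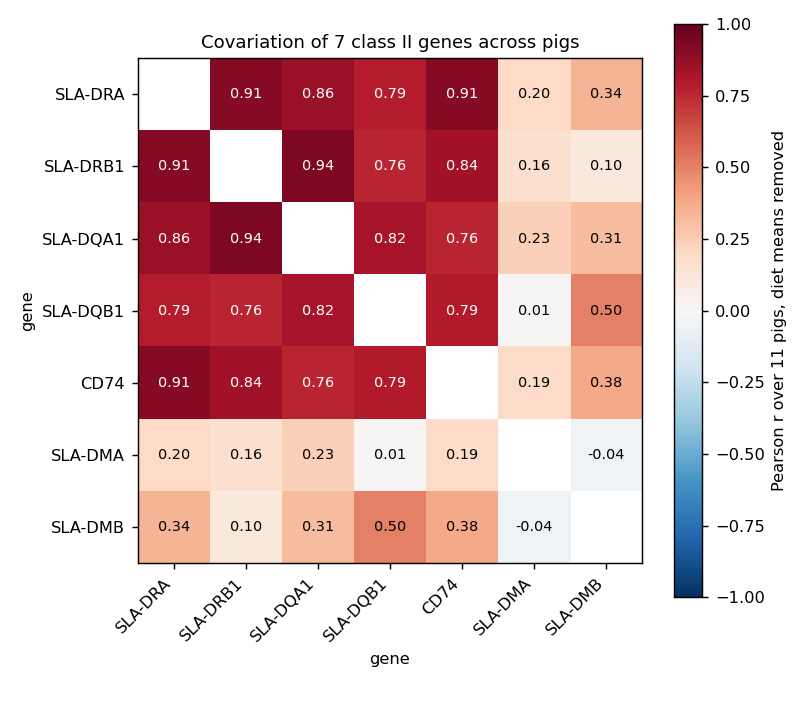
Pearson r over 11 pigs, diet means removed, for each pair of 7 class II genes (both axes list the genes, colour gives r from −1 to 1). The block of SLA-DRA, SLA-DRB1, SLA-DQA1, SLA-DQB1 and CD74 holds the 10 pairs from 0.76 to 0.94, and the rows of SLA-DMA and SLA-DMB stay between −0.04 and 0.50.

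The arrays' own brightness moved with some of these genes. The mean of the spike-ins had r = 0.389 with SLA-DRA (rho = 0.364, exact within-diet permutation p = 0.338), 0.541 with SLA-DRB1 and 0.599 with CD74. It had 0.346 with SLA-DQA1 and 0.412 with SLA-DQB1, but 0.013 with SLA-DMA and −0.244 with SLA-DMB. With the spike-ins regressed out the 10 pairs had r from 0.705 to 0.948, and after quantile normalisation from 0.706 to 0.925. The 11 pairs with SLA-DMA or SLA-DMB had r from −0.034 to 0.684 and from −0.161 to 0.538 in these settings. With the spike-ins regressed out SLA-DMB had 0.681 with CD74 and 0.684 with SLA-DQB1. The part of array brightness in the gap between the 10 pairs and the 11 was not tested. Over all pairs of probe sets above the negative controls on every array the median r was 0.046, against 0.503 over the 21 class II pairs. In the RefSeq annotation of the pig assembly Sscrofa11.1 SLA-DRA, SLA-DRB1, SLA-DQA1, SLA-DQB1, SLA-DMB, SLA-DMA and SLA-DOA follow in this order on one chromosome, while CD74 lies on another.

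SLA-DRA was then set against the mean of each list to see which cell types or pathways ordered the pigs alike, in 13 relations with the spike-ins included. None passed adjustment over the 13. The relation with class I presentation had r = 0.785 (rho = 0.645, exact within-diet permutation p = 0.0106, adjusted p = 0.137) and 0.521 without HP 4 and HP 5. T lymphocyte markers had r = 0.631 (rho = 0.391, exact within-diet permutation p = 0.0761), but −0.109 without HP 4 and HP 5, so that value rests on these pigs. Only 6 of the 13 measured T lymphocyte genes were above the negative controls on all arrays.

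Endothelial markers had r = 0.628 (rho = 0.536, adjusted p = 0.247 by exact permutation) and adipocyte markers 0.605 (rho = 0.645, adjusted p = 0.247 by exact permutation), at 0.471 and 0.468 without the same pigs. The lists of the professional presenting cells had lower values, 0.078 for macrophages (rho = 0.027, exact within-diet permutation p = 0.841), 0.281 for dendritic cells (rho = 0.355, p = 0.513) and −0.206 for B lymphocytes (rho = −0.209, p = 0.623). Without HP 4 and HP 5 these 3 were −0.621, −0.038 and 0.035. With the spike-ins regressed out they were 0.300, 0.523 and 0.077. With 1 pig left out they ran from −0.305 to 0.264, from 0.070 to 0.611 and from −0.401 to 0.003. Their means include MARCO, CCR7 and CD79B, which were above the negative controls on 0 arrays. The regulators had r = 0.295 (rho = 0.155), the loading route 0.154 (rho = −0.0091), the interferon response 0.423 (rho = 0.318), fibroblasts 0.134 (rho = 0.145) and muscle fibres 0.518 (rho = 0.436), with adjusted p from 0.461 to 0.802 by exact permutation. The order of the lists changed with the setting. With the spike-ins regressed out muscle fibres had 0.809, above class I at 0.755, and fibroblasts 0.486. After quantile normalisation muscle fibres had 0.226. Without HP 4 adipocytes had 0.630 and class I 0.567. Without HP 1, 2 and 4 class I had 0.551, endothelium 0.281, the interferon response 0.056 and muscle fibres −0.060. Differences between these relations were not tested.

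The genes most like the class II group were found by Pearson r, over the 11 pigs and with diet means removed, with the mean standardised level of the 7 genes. Of 5611 candidate genes, with a median r of 0.296, the first was TACC2 (r = 0.930), a centrosome and microtubule protein, then IL10RB (0.928), a receptor chain for interleukin-10 and related cytokines, and TRIP4 (0.927), a transcriptional coactivator. They were followed by TMEM183A (0.911), the homeobox gene HOXD8 (0.904), TRAPPC12 (0.899), the actin-severing CFL1 (0.891), TMEM126B (0.886), CLPTM1 (0.882) and RAPGEF1 (0.877). These values describe the same 11 arrays that the group score was built on and carry no test.

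SLA-DOA, which was left out of the pairs for its low level, had r = 0.487 with SLA-DRA. SLA-DRB1 probe set 2, the brighter of the dim pair, had −0.171. These points include arrays below the negative controls and are given as a description.

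A further 3 probe sets carry a pair of symbols, SLA-DRB1 and LOC106504372, and so fell outside the rule. Their names end in x_at, the manufacturer's mark for probes that can match more than one transcript, and they are called here by their brightness. On the middle one the HP pigs 1 to 6 read 8.88, 8.43, 8.40, 9.08, 7.62 and 4.03, and the LP pigs 1 to 5 read 7.84, 8.70, 0.37, 8.71 and 8.32. HP 6 and LP 3 thus lay at least 3.59 below all 9 other pigs on the log2 scale, with LP 3 under the negative controls. On the brighter one the same pigs stood at 6.27 and 5.29 while the other 9 lay between 8.77 and 10.17, a gap of 2.50.

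On SLA-DRB1 probe set 1, with its single symbol, HP 6 and LP 3 read 9.97 and 9.75, low among the 11 pigs but with no such gap. The dimmest probe set with both symbols did not set these pigs apart, at 4.31 and 3.44 against 0.056 to 4.48 in the rest. Among all 23999 probe sets only 3 had HP 6 and LP 3 both at least 2 log2 units below the other 9 pigs, these 2 and another x_at probe set that has no symbol in the annotation, and 0 had both that far above. One low pig came from each diet, and the diet differences of the pair, −0.95 ± 1.54 and −0.33 ± 0.91, were within their errors (exact permutation test, p = 0.565 and 0.636). With diet means removed, the middle and brighter probe sets had r = 0.755 and 0.821 with SLA-DRB1 probe set 1, HP 6 and LP 3 included. What LOC106504372 encodes and which transcript these probes bind were not tested.

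**Figure D5:**
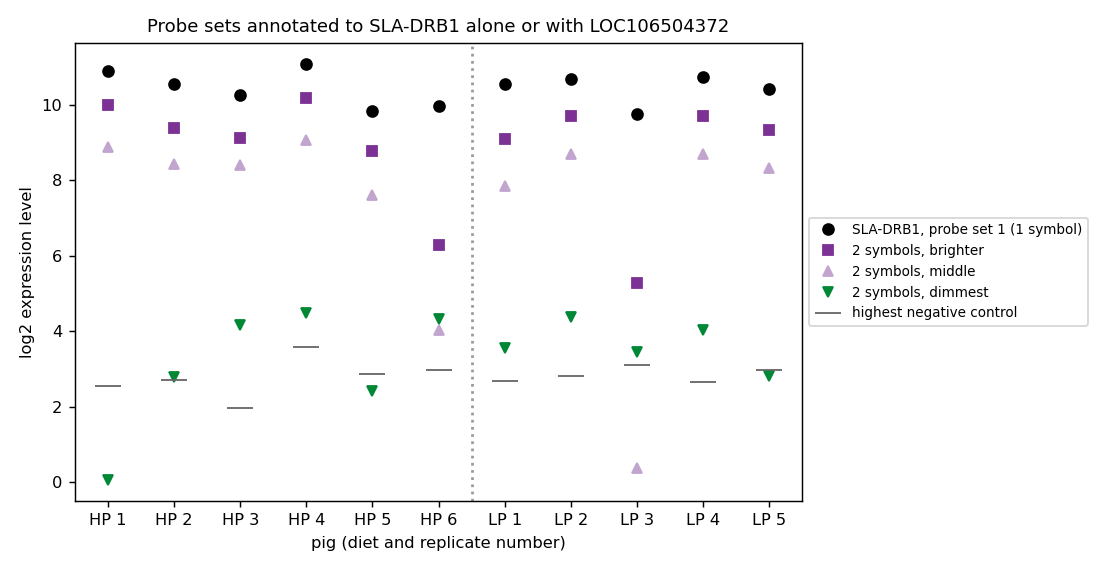
Log2 expression level (vertical axis) in each pig (horizontal axis) of the brightest single-symbol SLA-DRB1 probe set (black) and of the 3 probe sets annotated to SLA-DRB1 and LOC106504372, with the highest negative control of each array as a dash. HP 6 and LP 3 drop to 6.27 and 5.29 on the brighter of these and to 4.03 and 0.37 on the middle one, while the black points stay between 9.75 and 11.10.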

How the data were processed

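The authors hybridised biotin-labelled, amplified RNA of each pig to its own Affymetrix Porcine Genome array, and deposited 1 log2 level for each probe set and array. Their methods name R, Bioconductor and puma, but how background was corrected and arrays were scaled is not given in the sources used here. The log2 levels were used as deposited.

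Of 24123 probe sets 124 controls were left out. Symbols came from the platform annotation (10069 probe sets with 1 symbol, 198 with several, 13732 with none). LP minus HP was fitted over 23999 probe sets with limma 3.58.1 in R 4.3.3 (linear model, empirical Bayes, two-sided), with calls where the unadjusted p was at most 0.05. Single genes were also tested by exact two-sided permutation over 462 splits. Correlations were taken with diet means removed and tested by exact permutation within diets (86400 orders). A probe set counted as above background on an array if its level passed that of all 23 negative control probe sets there. The 27 spike-in probe sets are BioB, BioC, BioD and Cre. The fit was tested on simulated data. The number of arrays limits the precision.

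A gene was read by its probe set with the highest mean, and its probe sets were numbered by brightness. All class II genes are named; of other lists, called members and the 3 with the smallest p; and the 10 genes most like the class II score. The members and lists were chosen with earlier results of these data known. Alternatives covered quantile normalisation, dim probe sets left out, low values raised to the 20th percentile, a trended robust prior, array weights, a replicate block, averaging a gene's probe sets, Spearman's rho, spike-ins regressed out and each pig left out. The replicate numbers of the labels were not taken as pairs.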

Additional observations from a re-analysis of the deposited data

Results flagged for a closer look

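In a group of 4 to 10 pigs, the gap between the extreme pig and its neighbour was divided by the range of the group and set against Dixon's critical value. Of 28 groups (14 probe sets, 2 diets) 6 exceeded it, where chance gives about 1 in 20. The groups share pigs and genes, so the 6 are not separate outliers, and the share over all probe sets was not taken.

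SLA-DRB1 had 5 of these. On the probe sets annotated to SLA-DRB1 and LOC106504372, HP 6 was the low pig of its diet with ratios of 0.711 on the middle and 0.642 on the brighter of the 3, and LP 3 the low pig of its diet with 0.896 and 0.864. On SLA-DRB1 probe set 3, which was above the negative controls on 0 arrays, HP 6 was the highest HP pig with 0.651. On SLA-DMA probe set 2 LP 5 was the lowest LP pig with 0.753, at 6.75 against 7.27 to 7.44 in the other LP pigs. On SLA-DMA probe set 1 LP 5 stood at 8.97, also the lowest of its diet but within the limit.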

How the results depend on the processing

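Of 208 alternative fits of single class II probe sets, 2 passed the threshold, both for SLA-DRB1 probe set 3, which was above the negative controls on 0 arrays. The count of called class II probe sets was therefore 1 in place of 0 with the replicate block and 1 without HP 6, and ran from 0 to 1 over the fits that left out 1 pig. The sign was opposite in 42 fits, of which 0 passed. Over all alternatives the 7 well measured genes had differences from −0.178 to 0.409.

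Opposite signs came with the replicate block for SLA-DRA (−0.040), SLA-DQA1 (−0.0072) and SLA-DMA probe set 2 (0.023); with quantile normalisation for SLA-DRB1 probe set 1 (0.029) and CD74 (0.00086); with array weights for SLA-DRB1 (0.034), SLA-DMA probe set 1 (0.037) and CD74 (0.043); with the mean of all probe sets for SLA-DRB1 (0.41); and without HP 1, 2 and 4, an alternative chosen after seeing the data, for SLA-DRB1 probe sets 1 (0.41) and 2 (−0.30), SLA-DQB1 (0.16), SLA-DMA (0.044) and CD74 (0.25). With 1 pig left out the differences ran from −0.079 to 0.12 for SLA-DRA, −0.13 to 0.16 and −0.025 to 0.66 for SLA-DRB1 probe sets 1 and 2, −0.13 to 0.15 for SLA-DQA1, −0.18 to 0.039 for SLA-DQB1, −0.072 to 0.045 and −0.11 to 0.067 for SLA-DMA probe sets 1 and 2, −0.030 to 0.16 for SLA-DMB, 0.35 to 0.92 for SLA-DOA and −0.10 to 0.11 for CD74. The cause of these changes was not tested.

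The deviations of same-numbered pigs correlated at −0.11, 0.075, 0.035, 0.056 and 0.095 for numbers 1 to 5, so the numbers were not taken as pairs; 2 of 5 HP pigs correlated best with their own number. With the replicate block 1232 probe sets in all were called, against 1227. The median pairwise r was 0.538 after quantile normalisation, 0.684 with the spike-ins regressed out, 0.338 with the mean of all probe sets and 0.466 without HP 1, 2 and 4, and ran from 0.320 to 0.785 with 1 pig left out. With 6 and 5 pigs, 95% intervals from −0.29 to 0.27 for SLA-DMA to −0.60 to 0.58 for SLA-DRB1 set the size of diet difference that could be seen.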
